A study of Mus musculus with 6 samples.

Results

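The interferon response genes are transcripts that cells raise after sensing interferon or foreign nucleic acid, and 38 of them were listed by name for this description. The gene table of the libraries held 31054 features, and 37 of the 38 listed genes were matched to it by symbol; Mx2 is not analysed here. The rule takes genes by name and uses no measured value, but the list was made with earlier results of these data known. Transcripts were counted in single cells (10x Genomics GEM-X v4 chemistry, which reads the 3' end) from lungs of 6 male C57BL/6 mice of 21 months, with 1 library for each mouse. The 3 libraries labelled p16-DTR came from mice with both p16-CreERT2, a tamoxifen-dependent Cre recombinase under the p16 promoter, and R26-LSL-DTR, a diphtheria toxin receptor that Cre switches on. The 3 control libraries came from mice with p16-CreERT2 alone. Both groups received tamoxifen on 5 days and, 2 weeks later, diphtheria toxin on 5 days, so Cre, tamoxifen and toxin were shared by cases and controls, and lungs were taken after 2 weeks of recovery. Each library mixed 20000 sorted CD45- cells with 9000 CD45+ cells after Liberase digestion, so cell shares follow the sort. The design asks what the loss of cells with high p16 does to the other cells of the aged lung, and here to their interferon response.

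Type I interferons bind the receptor pair Ifnar1 and Ifnar2, and interferon gamma binds Ifngr1 and Ifngr2. The first acts through Stat2 and Irf9 at interferon-stimulated response elements, and the second acts at gamma-activated sites and induces Irf1. The genes reached in this way include the ubiquitin-like modifier Isg15 and its protease Usp18, the IFIT proteins that bind viral RNA, the OAS enzymes that sense double-stranded RNA, nucleic acid sensors, guanylate-binding proteins and immunity-related GTPases that act on vacuoles with pathogens, and immunoproteasome subunits. In the lung, endothelium, epithelium, fibroblasts and leukocytes all respond to interferon, and the baseline differs between them.

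Promoters were taken from RefSeq (GRCm38.p6) for 29 of the 37 genes, as 33 windows of 250 bases before to 50 bases after a transcription start, 300 bases in all. The letters GAAANNGAAA, a core of the interferon-stimulated response element, were found on either strand in 18 of the 33 windows (54.5%), against 3.44% of all 32851 promoters. The letters TTCNNNGAA, a core of the gamma-activated site, were found in 7 windows (21.2%), against 8.3% of all promoters, and both in 4 windows (12.1%), against 0.454%. A match describes the letters and not a site in use.

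Below are the 250 bases before the start of Isg15, Bst2, Gbp7 and Irf1, shown because these genes take the different courses described further on and carry different sets of the motifs; capitals mark the matches, and some overlap. Isg15 lies at chr4:156200819-156201068 (minus strand) and holds 3 overlapping response element matches, the first base of each lying 78, 72 and 66 bases before the start. Bst2 lies at chr8:71537473-71537722 (minus strand) and has a gamma-activated site match that overlaps the first of 2 response element matches. Gbp7 lies at chr3:142530086-142530335 (plus strand) and has 2 gamma-activated site matches and 1 response element match on the opposite strand. Irf1 lies at chr11:53769764-53770013 (plus strand) and has 1 gamma-activated site match, and the response element letters are not in its window.
Isg15: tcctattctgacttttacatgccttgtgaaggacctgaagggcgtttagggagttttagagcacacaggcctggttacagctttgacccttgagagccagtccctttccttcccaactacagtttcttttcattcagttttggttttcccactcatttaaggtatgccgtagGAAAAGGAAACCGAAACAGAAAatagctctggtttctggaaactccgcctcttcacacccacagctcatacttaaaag
Bst2: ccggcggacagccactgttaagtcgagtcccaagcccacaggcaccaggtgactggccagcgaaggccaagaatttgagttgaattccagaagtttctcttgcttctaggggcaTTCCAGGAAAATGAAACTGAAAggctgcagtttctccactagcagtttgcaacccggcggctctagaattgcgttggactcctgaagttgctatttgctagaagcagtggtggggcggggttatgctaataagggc
Gbp7: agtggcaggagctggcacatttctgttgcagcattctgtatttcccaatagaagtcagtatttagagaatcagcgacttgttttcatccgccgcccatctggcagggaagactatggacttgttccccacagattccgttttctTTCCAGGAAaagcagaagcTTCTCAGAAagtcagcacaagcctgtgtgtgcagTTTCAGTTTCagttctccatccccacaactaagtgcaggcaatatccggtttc
Irf1: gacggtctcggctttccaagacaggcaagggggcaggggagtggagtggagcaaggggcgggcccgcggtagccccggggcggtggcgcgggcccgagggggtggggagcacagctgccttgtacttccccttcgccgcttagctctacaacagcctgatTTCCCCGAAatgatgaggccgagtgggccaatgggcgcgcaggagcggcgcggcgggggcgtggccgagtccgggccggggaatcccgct

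The libraries held 13482 to 17332 cell barcodes and 254200305 to 344421685 unique molecular identifiers (UMIs, each a counted transcript molecule), and 91156 of 94392 barcodes were retained with median depths of 17091 to 18495.5 UMIs. Between 59 and 94 barcodes were shared by any pair of libraries. Between 75.0% and 78.1% of retained cells were assigned to a cell type by counting markers with at least 2 UMIs in each cell, and 17 cell types had at least 50 cells in every library. A type name here stands for cells that pass this marker rule. Levels are UMIs per 1000000 UMIs of the same cells (CPM) and are compared only within a gene. Cdkn2a, which encodes p16, went against the group label. Over all cells it was at 7.10, 8.57 and 7.31 CPM in p16-DTR libraries 1, 2 and 3, and at 1.15, 2.60 and 2.84 in control libraries 1, 2 and 3. The p16-DTR libraries were thus the higher ones, in CD4 T cells (13.6 to 21.5 against 2.04 to 8.53) and alveolar fibroblasts (4.33 to 6.20 against 0.120 to 0.212) as well, while aerocytes overlapped at 32.9 to 42.1 against 21.98 to 44.0. Every direction below is that of libraries labelled p16-DTR relative to libraries labelled control. The 11 dissociation stress and immediate early genes summed to 6019 to 6576 CPM in the p16-DTR libraries and 6848 to 8989 in the controls, and their part in the results below was not tested.

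Over all retained cells, most of the interferon response genes lay higher in the p16-DTR libraries, led by the OAS enzymes, while Irf1 and Iigp1 lay lower; none passed the adjusted threshold in the main test. The test was edgeR's quasi-likelihood test on UMI counts summed per library, with Benjamini-Hochberg adjustment over 21630 genes and a threshold of 0.05, and it called 0 of the 37 genes and 0 genes in all (percent called 0). At an unadjusted p under 0.05 it counted 24 of the 37 as higher and 2 as lower, against 10.5% and 12.8% of all genes. DESeq2, a second count test, called 20 of the 37 (19 higher, 1 lower), against 13.5% of all genes. The median log2 fold change was 0.34, against -0.01 over all genes, and 33 of 37 were above 0, against 47.6% of all genes. The 3 values of each group did not overlap for 20 genes that were higher (8.58% of all genes) and 2 that were lower (22.5% of all genes). In summed cells, fewer cells of a type and less RNA per cell cannot be told apart. With equal numbers of cells of each type drawn from every library, the median was 0.20, with 16 genes higher and 3 lower at an unadjusted p under 0.05 (10.2% and 12.6% of all genes in that draw). Mononuclear phagocyte markers, 6 genes, summed to 3349 to 3870 CPM in the p16-DTR libraries and 2671 to 3089 in the controls, and their part in the all-cell values was not tested beyond that draw.

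**Figure D1:**
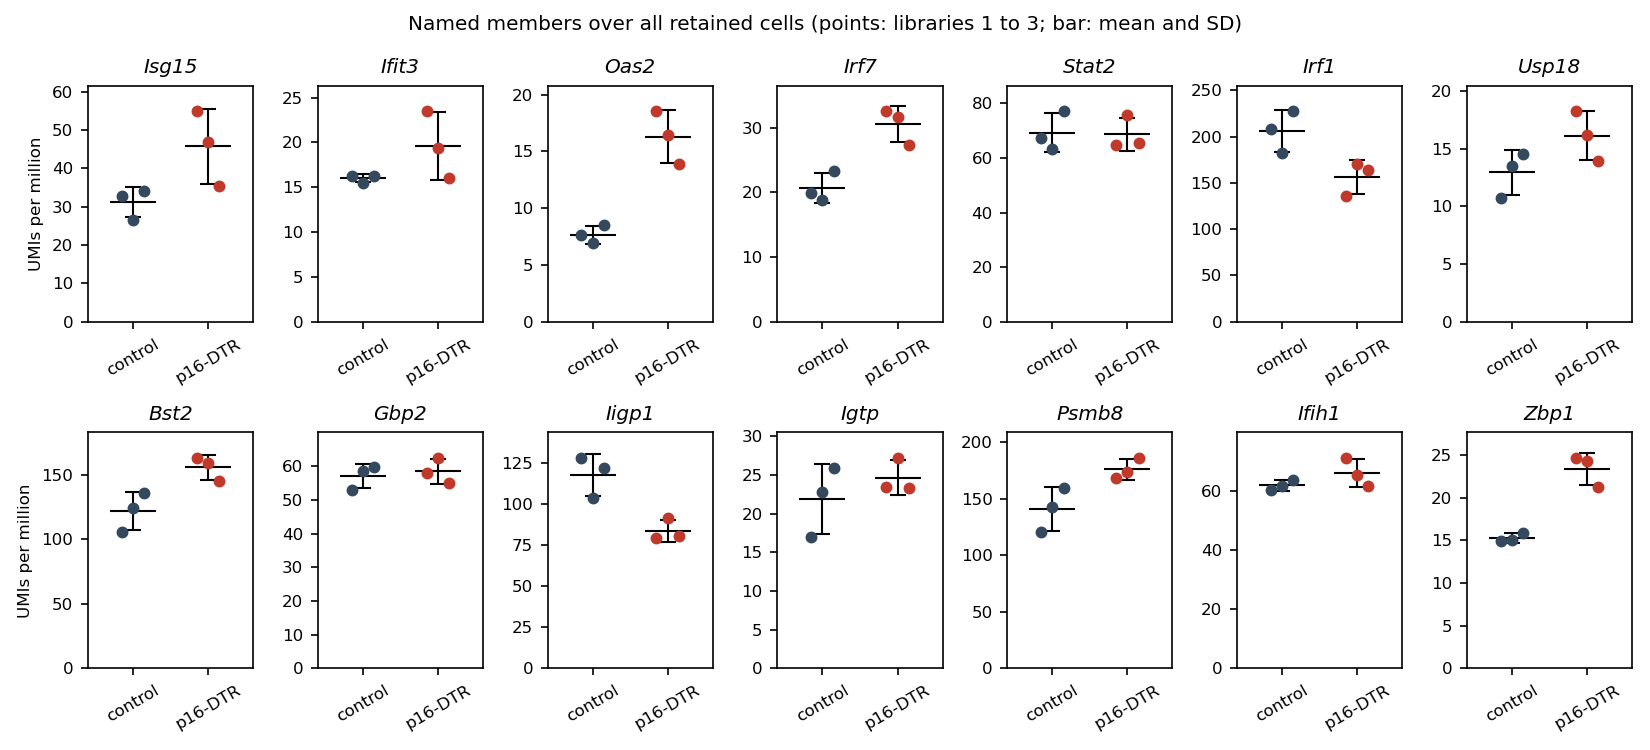
Levels of 14 named interferon response genes over all retained cells, in CPM from 0 on a linear axis, for 3 control and 3 p16-DTR libraries (points), with mean and SD (bars). For Oas2 the p16-DTR libraries sit between 13.9 and 18.5 and the controls between 6.89 and 8.49, and for Iigp1 the order is the opposite, with 79.6 to 91.4 against 104 to 128.

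All 5 OAS genes, which encode sensors of double-stranded RNA that feed RNA decay or signalling, had non-overlapping and higher values in the p16-DTR libraries (8.58% of all genes did). Their log2 fold changes ranged from 0.48 to 1.14, with a median of 0.94. Oas2 (chr5:120730333-120749853, GRCm38, minus strand) was at 18.5, 16.5 and 13.9 CPM in p16-DTR libraries 1 to 3 and at 7.61, 6.89 and 8.49 in control libraries 1 to 3. All 3 p16-DTR libraries were above all controls, with a log2 fold change of 1.14 ± 0.13 (SE), but edgeR's quasi-likelihood test gave an adjusted p of 0.104. Over the alternative settings this adjusted p ranged from 9.57e-12 with DESeq2 to 0.334. The family summed to 81.9 to 118 CPM against 58.1 to 70.8 in the controls.

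Of the group listed here as the ISG15 system, which also takes in Parp14 beside Isg15, Usp18 and Herc6, 3 of 4 genes passed the unadjusted threshold as higher. Of the IFIT family 2 of 4 did, against 10.5% of all genes. Isg15 (chr4:156199424-156200818, minus strand), the modifier itself, was at 54.9, 46.9 and 35.5 CPM in p16-DTR libraries 1 to 3 and at 32.7, 26.7 and 34.1 in the controls. The groups did not overlap, but p16-DTR library 3 lay next to control library 3 (log2 fold change 0.61 ± 0.17, edgeR adjusted p = 0.148, range over settings 0.0218 to 0.358). Usp18, which removes Isg15 from proteins and dampens the type I receptor, was at 18.3, 16.2 and 14.0 CPM against 10.8, 13.5 and 14.5, and the groups overlapped. Ifit3, an RNA-binding cofactor of Ifit1, was at 23.5, 19.3 and 16 CPM against 16.3, 15.5 and 16.2, and overlapped through p16-DTR library 3. Ifit3 and its near-identical copy Ifit3b can share reads.

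Of the other antiviral effectors, 5 of 7 passed the unadjusted threshold as higher (10.5% of all genes), with a median log2 fold change of 0.59 and sums of 421 to 576 CPM against 311 to 385. Bst2, tetherin, which holds budding virus at the membrane, was at 163, 159 and 145 CPM in the p16-DTR libraries and at 106, 124 and 136 in the controls. The groups did not overlap (log2 fold change 0.40 ± 0.09, edgeR adjusted p = 0.131). The nucleic acid sensors were similar, with 4 of 6 higher at the unadjusted threshold, beside the same 10.5%, and sums of 348 to 381 CPM against 303 to 314. Zbp1, a sensor of left-handed nucleic acid, was at 24.7, 24.3 and 21.2 CPM against 14.9, 15.1 and 15.9, a clear gap between groups (log2 fold change 0.66 ± 0.07, edgeR adjusted p = 0.0964, range over settings 6.09e-12 to 0.334). Ifih1, the sensor MDA5, was at 71.3, 65.5 and 61.6 CPM against 60.3, 61.6 and 63.9 and overlapped.

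The transcription factors split. Irf7, which amplifies type I interferon transcription, was at 32.6, 31.7 and 27.4 CPM in the p16-DTR libraries and at 19.9, 18.8 and 23.3 in the controls, without overlap (log2 fold change 0.61 ± 0.10, edgeR adjusted p = 0.126). Irf1, which interferon gamma induces, ran the other way, at 136, 171 and 164 CPM against 209, 183 and 227, also without overlap (log2 fold change -0.35 ± 0.11, edgeR adjusted p = 0.159, range over settings 0.0544 to 0.378). Stat2, the type I signal carrier, was at 64.8, 75.7 and 65.5 CPM against 67.4, 63.3 and 77.1, with overlap; its log2 fold change of 0.04 changed sign under 4 settings. Irf1 and Irf7 overlap genes on the opposite strand, Gm17334 and Phrf1.

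Among the interferon-inducible GTPases, 2 of 6 passed the unadjusted threshold as higher and 1 as lower, against 10.5% and 12.8% of all genes. Gbp2, a guanylate-binding protein, was at 58.0, 62.5 and 55.0 CPM against 53.0, 58.5 and 59.7, and Igtp, an immunity-related GTPase that shares exons with Irgm2, was at 23.4, 27.2 and 23.3 against 17.02, 22.8 and 25.9. Both overlapped. Iigp1, an effector GTPase of the same family that attacks vacuole membranes, was at 79.6, 91.4 and 80.4 CPM against 128, 104 and 122, so all p16-DTR libraries were below all controls (log2 fold change -0.45 ± 0.10, edgeR adjusted p = 0.130, range over settings 0.00362 to 0.358). The immunoproteasome subunit Psmb8, a protease subunit that shapes peptides for class I display, was at 168, 174 and 186 CPM against 120, 142 and 160, and the groups did not overlap (log2 fold change 0.37 ± 0.10, edgeR adjusted p = 0.140). Within the 17 tested cell types its log2 fold change ran from -0.34 to 0.24, above 0 in 11 and below in 6. The all-cell value thus lay above that of every tested type, and the part of the cell mix in it was not tested.

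The fold changes were also set beside the promoter letters. Over all cells, the 18 genes with the response element letters had a median log2 fold change of 0.31, and the 11 without them 0.30. The 7 genes with the gamma-activated site letters had a median of 0.28, with 5 above 0, and the 22 without them 0.32, with 21 above 0. In alveolar fibroblasts the median was -0.03 with those letters (3 of 7 above 0) and 0.25 without them (16 of 21). In adventitial fibroblasts it was -0.19 (2 of 7) and -0.0031 (10 of 21). The order was the opposite in other types, among them peribronchial fibroblasts (-0.37 with and -0.81 without). Aerocytes (0.33 and 0.29), B cells (0.44 and 0.33) and venous cells (0.11 and 0.08) did likewise, so no order held over the types.

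The genes upstream and around the members, 109 in number, were followed from a separate list; 94 were tested over all cells. None was called by edgeR's quasi-likelihood test. At an unadjusted p under 0.05, 43 were higher (10.5% of all genes) and 3 lower (12.8%), and DESeq2 called 33 (13.5% of all genes). Of 15 interferon ligands, Ifng alone had enough UMIs for the test, at 3.74, 6.20 and 8.16 CPM in the p16-DTR libraries and 1.63, 2.55 and 4.83 in the controls, with overlap (edgeR adjusted p = 0.216 for a log2 fold change of 1.06). Ifnb1, the type I ligand interferon beta, had 1 UMI over the p16-DTR libraries and 5 over the controls. The receptor subunits Ifnar1 and Ifnar2 had log2 fold changes of 0.09 and -0.04. Ifngr1 was at 434, 412 and 461 CPM against 368, 342 and 389, and Ifngr2 at 82.7, 82.6 and 79.0 against 70.6, 75.3 and 78.3; in both the groups did not overlap, with log2 fold changes of 0.30 and 0.17. Irf9, the DNA-binding partner of Stat2, had a log2 fold change of 0.19.

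Within cell types, calls in the main test were few and all pointed upward. The wider pattern is described type by type, and whether an effect differed between types was tested only in the 4 types with calls. In CD4 and CD8 T cells, B cells, both monocyte types, neutrophils and aerocytes the share of members above 0 was 33 of 36 or more. It was 2 of 23 in alveolar type 2 cells and 3 of 26 in peribronchial fibroblasts. The other 8 types lay between, from 10 of 33 in arterial cells to 26 of 36 in alveolar fibroblasts and 27 of 37 in venous cells. In 17 cell types, 559 tests of a member gave 12 calls (2.15%), all higher, against 0.522% of all tests. The calls covered 10 genes in 4 cell types, and 13 cell types had none. DESeq2 gave 62 calls, 49 higher and 13 lower, against 3.27% of all tests. The median log2 fold change of the members was above 0 in 12 cell types and below 0 in 5; of all genes, between 48% and 52.7% were above 0 in each cell type. Of the 5, adventitial fibroblasts (-0.0058) turned above 0 with DESeq2 (0.0043), the replicate block (0.017) and equal cells per library (0.030), and arterial (0.098) and ciliated cells (0.058) did so when cells were taken from clusters. With a library left out, the median also changed sign in adventitial fibroblasts, ciliated cells and lymphatic cells. Genes named below that did not pass the adjusted threshold in a cell type were chosen after their values were seen, apart from the 14 of the all-cell plot, which were named by a set rule.

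**Figure D2:**
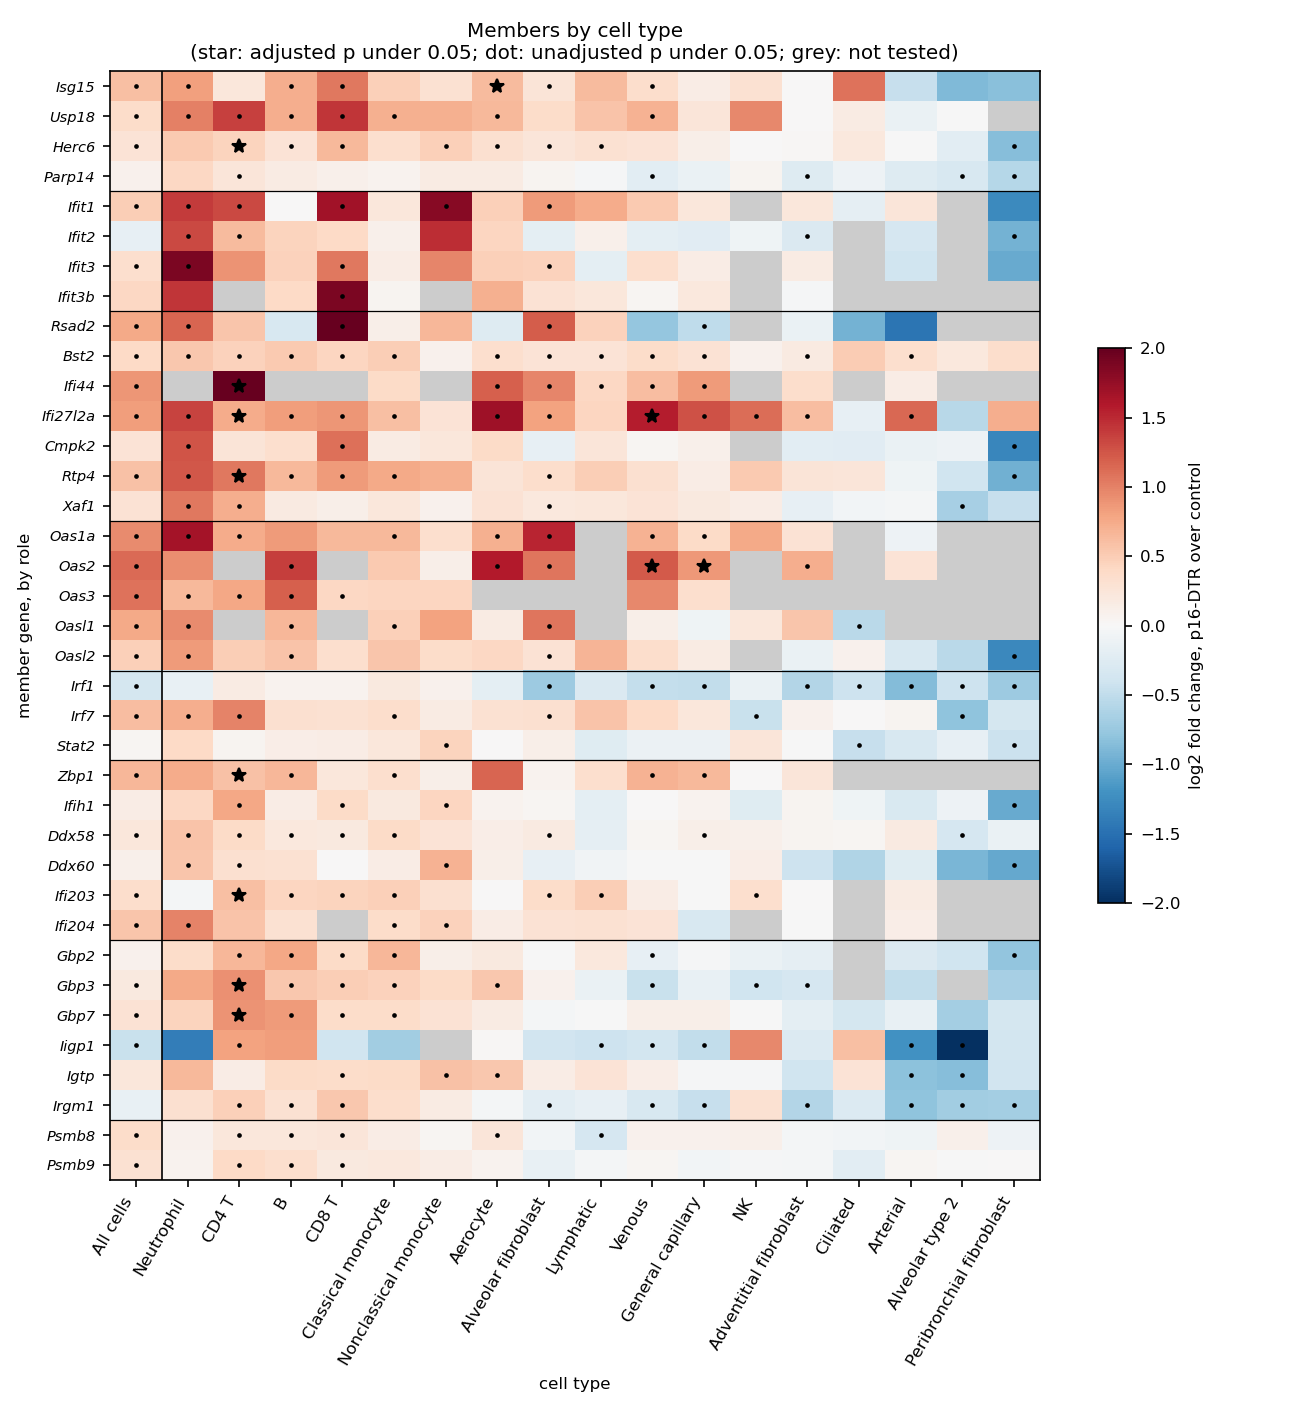
Log2 fold change (p16-DTR over control, colour scale from -2 to 2) of each of 37 interferon response genes, in rows by role, over all cells and in 17 cell types. The 12 stars mark an adjusted p under 0.05, dots an unadjusted p under 0.05 and grey a gene not tested there; the leukocyte columns on the left are mostly red and the 2 columns on the right mostly blue.

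**Figure D3:**
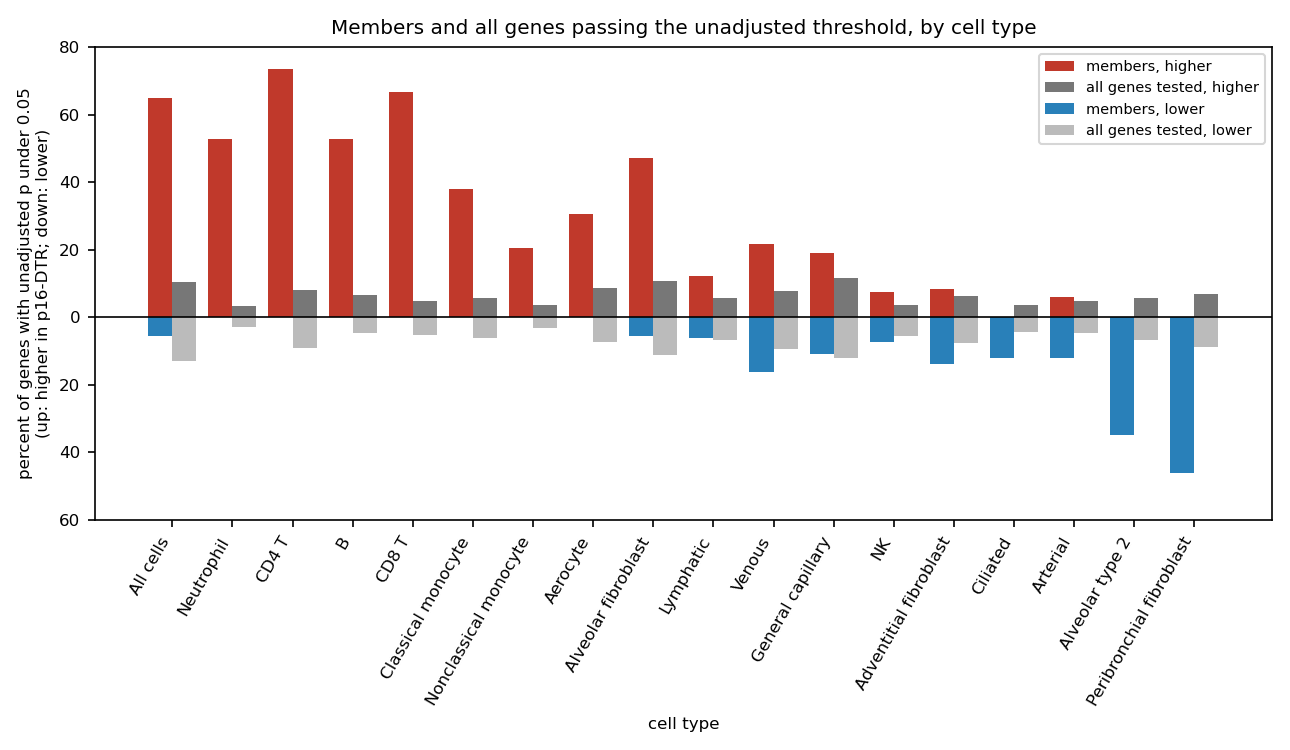
Percent of tested interferon response genes (coloured bars) and of all tested genes (grey bars) with an unadjusted p under 0.05, higher in p16-DTR above the 0 line and lower below it, for all cells and 17 cell types. In CD4 T cells 25 of 34 were higher, against 8.02% of all genes, and in peribronchial fibroblasts 12 of 26 were lower, against 8.66%.

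CD4 T cells (209 to 400 per library) held 8 of the 12 calls, which were the sensors Ifi203 and Zbp1, the GTPases Gbp7 and Gbp3, the ISG15 ligase Herc6, and the antiviral effectors Ifi27l2a, Ifi44 and Rtp4. The 8 calls were among 34 tested members, beside 3.86% of all genes called and 1.49% called as higher. All 34 were above 0, with a median log2 fold change of 0.59; 25 were higher at an unadjusted p under 0.05 (8.02% of all genes), 23 did not overlap (13.2% of all genes), and DESeq2 called 13 (5.45% of all genes). Summed over the members, the p16-DTR libraries reached 2438 to 2964 CPM and the controls 1773 to 1906.

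Ifi203, a DNA-binding protein of the interferon-inducible p200 family, was at 287, 317 and 283 CPM in CD4 T cells of p16-DTR libraries 1 to 3 and at 203, 178 and 194 in the controls. Each p16-DTR library lay well above each control, and Ifi203 rose by 0.60 ± 0.08 on the log2 scale (edgeR adjusted p = 0.00953, range over settings 1.73e-08 to 0.0997). It shares exons on the same strand with Mndal, which also rose, so their reads may not be separable. Gbp7 was at 107, 136 and 97.8 CPM against 61.7, 54.1 and 63.8, again without overlap, and rose by 0.90 ± 0.13 (adjusted p = 0.0140, range 9.45e-07 to 0.202).

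Herc6, the main ISG15 ligase of the mouse, was tight in both groups, at 73.5, 75.3 and 76.0 CPM against 54.5, 55.4 and 52.2 (log2 fold change 0.45 ± 0.07, edgeR adjusted p = 0.0166, range over settings 0.00948 to 0.0657). Gbp3 was at 30.3, 47.0 and 37.0 CPM against 22.9, 17.8 and 19.4 (log2 fold change 0.91 ± 0.18, adjusted p = 0.0338). Neither gene's groups overlapped. The other 4 calls had log2 fold changes of 0.58 in Zbp1, 0.75 in Ifi27l2a, 1.05 in Rtp4 and 2.02 in Ifi44. Ifi44 had only 55 UMIs against 15, at 3.79, 4.91 and 2.54 CPM against 0.764, 0.726 and 1.09. It passed the filter on low counts only through the p16-DTR libraries, where it was high, and its call carries that limit. Of these 8 calls, 4 remained without p16-DTR library 1 or 3, 2 without p16-DTR library 2 or control library 3, and 1 without control library 1 or 2; Ifi203 stayed called in all 6 fits.

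The share of CD4 T cells with transcripts of the interleukin 17 programme differed between the groups. Cells with a UMI of Il17a, Il17f or Il23r, genes of the interleukin 17 programme, made up 15.3% (32 of 209), 2.82% (9 of 319) and 7.25% (29 of 400) of CD4 T cells in p16-DTR libraries 1 to 3, and 38.4% (91 of 237), 44.3% (137 of 309) and 32.1% (127 of 396) in the controls. These cells were fewer in every p16-DTR library than in every control. A single UMI was enough to count a cell, and the share of such cells in other cell types is not given here. In the controls, 34 of the 37 interferon response genes were lower in the interleukin 17 programme cells than in the remaining CD4 T cells. For 21 of these genes this held in all 3 control libraries. The share of all genes lower in these cells is not given here, so the counts are not shown to be particular to the interferon response genes. Without these cells, edgeR's quasi-likelihood test called 0 of 33 members, beside 0.324% of all genes; 17 were higher at an unadjusted p under 0.05 (5.84% of all genes), 32 of 33 were above 0 (Stat2 was at -0.03) and the median was 0.39. Of the 8 called genes, 7 were still tested, with log2 fold changes of 0.35 to 0.85 and adjusted p of 0.0574 to 0.473. The 11 stress genes summed to 2701 to 2915 CPM in CD4 T cells of p16-DTR libraries and 3704 to 3974 in the controls, and 6 natural killer markers to 135 to 261 against 46.9 to 59.9; their part in the calls was not tested.

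**Figure D4:**
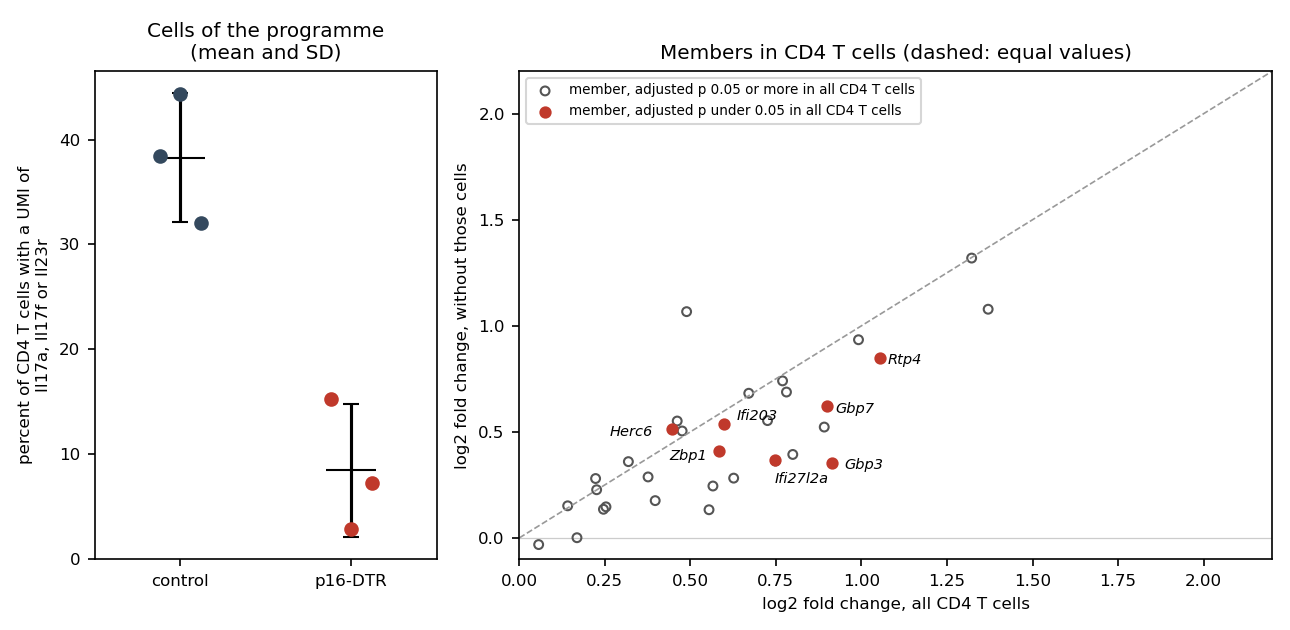
Left, percent of CD4 T cells with a UMI of an interleukin 17 programme gene in each library (points, with mean and SD), 2.82 to 15.3 in p16-DTR and 32.1 to 44.3 in control. Right, log2 fold change of each of 33 interferon response genes with (x axis) and without (y axis) those cells; the 7 filled points, called in all CD4 T cells and tested in both fits, remain above 0.

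In endothelium, Oas2 rose in venous and general capillary cells, Ifi27l2a in venous cells and Isg15 in aerocytes, the capillary cells of gas exchange. In venous cells (288 to 480 per library) 2 of 37 members were called, beside 2.12% of all genes. Oas2 was at 51.2, 49.0 and 48.2 CPM in the p16-DTR libraries and 20.7, 20.5 and 23.1 in the controls, with little spread in either group, and rose by 1.23 ± 0.09 on the log2 scale (edgeR adjusted p = 0.00182, range over settings 3.44e-13 to 0.0171). It stayed called with each library left out. Ifi27l2a, a small interferon-induced membrane protein, was at 44.7, 30.8 and 46.6 CPM against 13.4, 8.13 and 19.6, without overlap (log2 fold change 1.56 ± 0.27, adjusted p = 0.0311, range over settings 1.73e-06 to 0.115). Its call was lost without p16-DTR library 1, 2 or 3 or control library 1, and reads of its close relative Ifi27l2b may mix with it.

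Beside these calls, the GTPases of venous cells summed to 672 to 697 CPM in the p16-DTR libraries and 786 to 828 in the controls, and 4 of 6 were lower at an unadjusted p under 0.05. Iigp1 in venous cells was at 219, 217 and 296 CPM against 314, 309 and 336, without overlap. Over all 37 members of venous cells, 8 were higher and 6 lower at that threshold (7.66% and 9.41% of all genes). The stress genes summed to 6399 to 8486 CPM against 9950 to 11566 in these cells, and their part was not tested.

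General capillary cells, the most numerous type (2806 to 4160 per library), had 1 call in 37, beside 0.374% of all genes. Oas2 was at 36.5, 35.0 and 28.1 CPM against 19.4, 16.6 and 20.8, so the groups were apart (log2 fold change 0.86 ± 0.11, edgeR adjusted p = 0.0380, range over settings 8.95e-09 to 0.0973); the call held only without p16-DTR library 3 and was lost without any of the other 5. Iigp1 was at 152, 197 and 160 CPM against 252, 225 and 262 (log2 fold change -0.49, adjusted p = 0.0647), and Irf1 at 241, 324 and 297 against 452, 330 and 469, both without overlap. The stress genes summed to 4223 to 5279 CPM against 5727 to 8119 in these cells. Members at an unadjusted p under 0.05 numbered 7 higher and 4 lower, against 11.5% and 12.1% of all genes.

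In aerocytes (322 to 639 per library) Isg15 was at 39.0, 36.4 and 36.4 CPM in the p16-DTR libraries and 23.6, 20.8 and 28.8 in the controls, without overlap (log2 fold change 0.64 ± 0.11, edgeR adjusted p = 0.0484, range over settings 0.000944 to 0.208). It was the single call among 36 members, beside 0.573% of all genes, and was lost with any of the 6 libraries left out. Oas2 was at 6.04, 3.61 and 4.87 CPM against 1.41, 1.35 and 2.04 (log2 fold change 1.59, adjusted p = 0.0543). In all, 33 of 36 were above 0 and 11 were higher at an unadjusted p under 0.05 (8.74% of all genes), 7 of the 36 being higher without overlap (7.59%). In arterial cells (57 to 110 per library) 10 of 33 were above 0 with a median of -0.14, none was called (0.00982% of all genes) and DESeq2 called 2 as lower (3.02%). That DESeq2 share is over 2088 genes with an adjusted p, of 10180 tested. With cells taken from clusters the median turned to 0.098, with 20 of 35 above 0. Under the marker rule, Iigp1 was at 91.3, 75.1 and 65.5 CPM against 191, 122 and 227, and Irf1 at 160, 152 and 189 against 335, 233 and 350. Both were lower in every p16-DTR library, with adjusted p of 0.110 and 0.124, and the stress genes summed to 5046 to 6644 CPM against 7526 to 10449.

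Neutrophils (332 to 805 per library) had the highest median log2 fold change of the 17 cell types, 0.74, with 33 of 36 members above 0 and none called. The 0 calls stood beside a percent called of 0 over all genes; 19 members were higher at an unadjusted p under 0.05 (3.29% of all genes), 17 did not overlap (5.19%), and DESeq2 called 5 (0.294%). Ifit3 in neutrophils was at 49.9, 43.7 and 29.2 CPM in the p16-DTR libraries and 10.3, 5.89 and 17.3 in the controls, without overlap (log2 fold change 1.89 ± 0.35, edgeR adjusted p = 0.391). Rsad2, viperin, which blocks viral replication, was at 171, 146 and 106 CPM against 53.6, 54.1 and 83.4, and Rtp4, a chaperone and antiviral factor, at 212, 186 and 144 against 60.9, 41.2 and 127. Both were apart between groups. Isg15 was at 375, 406 and 252 CPM against 178, 152 and 260 and overlapped, p16-DTR library 3 being the low one of its group and control library 3 the high one of its own. The stress genes overlapped in these cells (8644 to 9812 CPM against 7800 to 9363).

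In CD8 T cells (178 to 643 per library) 32 of 33 members were above 0 with a median of 0.40; 22 were higher at an unadjusted p under 0.05 (4.67% of all genes), 17 did not overlap (6.69%), none was called (percent called 0) and DESeq2 called 7 (1.13%). Isg15 was at 27.5, 33.9 and 24.4 CPM against 13.1, 15.4 and 13.2 in these cells, without overlap (log2 fold change 1.05 ± 0.14, edgeR adjusted p = 0.0714). Rsad2 was at 5.49, 6.82 and 4.59 CPM against 0.891, 1.75 and 1.19 (log2 fold change 2.17, adjusted p = 0.0916). It passed the filter on low counts through the p16-DTR libraries, where it was high. In CD8 T cells 4 naive T cell genes summed to 1447 to 1776 CPM against 1998 to 2241, and the stress genes to 1865 to 2156 against 2227 to 2471. Fewer naive cells and less of these transcripts per cell cannot be told apart in these sums. The part of either gene set in the values above was not tested.

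In B cells (574 to 890 per library) 35 of 36 members were above 0 with a median of 0.42; 19 were higher at an unadjusted p under 0.05 (6.62% of all genes), 15 did not overlap (6.17%), none was called (0.00771% of all genes) and DESeq2 called 2 (3.6%). That DESeq2 share is over 3163 genes with an adjusted p, of 12968 tested. Ifi27l2a in B cells was at 243, 233 and 193 CPM against 147, 107 and 130, without overlap (log2 fold change 0.84 ± 0.13, edgeR adjusted p = 0.190). Bst2 was at 43.8, 47.8 and 36.8 CPM against 33.3, 27.3 and 30.6, also apart. Phagocyte markers in these cells summed to 885 to 1160 CPM against 795 to 880, and the stress genes to 2397 to 2690 against 2227 to 2761. Classical monocytes had 36 of 37 members above 0 (median 0.36, 14 higher at an unadjusted p under 0.05 against 5.57% of all genes, 3 higher without overlap against 5.76%, DESeq2 0 calls against 0.881%), and nonclassical monocytes 34 of 34 (median 0.33, 7 higher against 3.59%, 3 without overlap against 6.25%, DESeq2 1 call against 0.768%). Neither had a call, with percent called 0 in both.

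Peribronchial fibroblasts (51 to 149 per library) and alveolar type 2 cells (105 to 162 per library), the surfactant cells, showed the lower values. In peribronchial fibroblasts 3 of 26 tested members were above 0, with a median of -0.67; 12 were lower at an unadjusted p under 0.05 (8.66% of all genes), 10 did not overlap (12.1%), none was called beside 0.711% of all genes, and DESeq2 called 3 (1.76%). Ifih1 in these cells was at 43.5, 28.6 and 25.1 CPM in the p16-DTR libraries and 53.2, 80.6 and 74.3 in the controls, all below (log2 fold change -1.01 ± 0.23, edgeR adjusted p = 0.0853). Herc6 was at 41.1, 40.5 and 33.8 CPM against 68.3, 91.3 and 53.8 (log2 fold change -0.85, adjusted p = 0.0918). The stress genes summed to 17934 to 18304 CPM against 18546 to 21705 in this type. With cells taken from clusters in place of the marker rule, the median was -0.32 and 6 of 30 members were above 0.

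In alveolar type 2 cells 23 members were tested and 2 were above 0, with a median of -0.40; 8 were lower at an unadjusted p under 0.05 (6.59% of all genes), 9 did not overlap (13.3%), none was called (0.00861% of all genes) and DESeq2 called 0 (0.766%). Iigp1 was at 0.628, 0.539 and 1.86 CPM against 7.15, 2.49 and 3.84, from 16 UMIs against 84 (log2 fold change -2.05, edgeR adjusted p = 0.240). It was near the floor in p16-DTR libraries 1 and 2 and passed the filter on low counts through the control libraries, where it was high. Igtp was at 3.98, 3.23 and 2.98 CPM against 6.79, 5.97 and 6.35, without overlap. The 37 genes summed to 309 to 372 CPM against 406 to 448, and the stress genes to 4037 to 4725 against 5044 to 6409. Alveolar fibroblasts, the largest mesenchymal type, ran the other way, with 26 of 36 members above 0 and a median of 0.23; 17 were higher and 2 lower at an unadjusted p under 0.05 (10.8% and 11.2% of all genes), 10 higher and 2 lower without overlap (10.4% and 16.1%), none of 36 called (0.873% of all genes) and 9 called by DESeq2 (8.73%). Irf1 was at 77.3, 84.2 and 79.1 CPM against 146, 96.2 and 164 in them, below every control.

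Read across the cell types in which each was tested, 5 of the 37 genes were above 0 in every type, 26 in more types than not, 2 in as many as below, and 4 were below 0 in more types than above. The 5 were Bst2 (17 of 17 types, 12 of them at an unadjusted p under 0.05), Zbp1 (13 of 13, 5), Oas2 (10 of 10, 6), Ifi44 (9 of 9, 6) and Oas3 (8 of 8, 4). Ifi27l2a was above 0 in 15 of 17 types (12 at that threshold) and Oas1a, which has the near copy Oas1g, in 12 of 13 (7). The 4 were Irf1, Iigp1, Irgm1 and Ddx60. Irf1 was below 0 in 12 of 17 types, with 8 lower and 0 higher at an unadjusted p under 0.05, and Iigp1 in 11 of 16, with 5 lower and 1 higher. Irgm1, a regulator of the GTPase family, was below 0 in 10 of 17 types, with 7 lower and 3 higher, and Ddx60, a helicase of antiviral RNA sensing, in 9 of 17, with 1 lower and 3 higher. Rsad2 and Gbp2 were evenly divided, with 7 types above and 7 below 0 and 8 above and 8 below. The types share their libraries and are not independent, and a gene is counted only where it passed the filter on low counts. A gene near that filter can pass through the group where it is high. Ifi44 did so in CD4 T cells, Rsad2 in CD8 T cells and Iigp1 in alveolar type 2 cells, and these entries are among the counts. For such genes the direction is partly set by the filter, and Oas2, Ifi44 and Oas3 were tested in only 10, 9 and 8 types. The share of all genes with the same counts over types is not given here, so how unusual these counts are cannot be judged.

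Baseline levels in control libraries also differed by type, ordered here among the 17 tested types only. Isg15 was highest in neutrophils (196 ± 56.8 CPM, SD, n = 3), apart from classical monocytes (76.9 ± 9.08), and lowest in B cells (4.09 ± 1.22). Ifi27l2a was highest in classical monocytes (736 ± 156), apart from CD4 T cells (303 ± 39.9), and lowest in aerocytes (3.30 ± 2.43). Irf7 was also highest in classical monocytes (106 ± 8.45), apart from natural killer cells (51.7 ± 11.1). Iigp1 and Irf1 had their highest means in endothelium. Iigp1 was highest in venous cells (320 ± 14.0), apart from general capillary cells (246 ± 19.2), which in turn overlapped arterial cells and peribronchial fibroblasts, and lowest in nonclassical monocytes (2.35 ± 1.19). Irf1 was at 431 ± 86.3 CPM in venous and 417 ± 76.3 in general capillary cells, which overlapped, and lowest in ciliated cells (59.98 ± 6.07). The types named as lowest for these genes each overlapped another type. Oas2 was at 28.0 ± 9.64 CPM in classical monocytes, 23.1 ± 13.9 in neutrophils and 21.4 ± 1.48 in venous cells, all overlapping, and had no UMI in natural killer cells of the controls.

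Of the 109 surrounding pathway genes, 1334 tests within cell types gave 27 calls, 22 higher and 5 lower, beside 0.522% of all tests, and DESeq2 gave 66, beside 3.27%. CD4 T cells held 20 of the calls, where 3.86% of all genes were called, 1.49% as higher and 2.37% as lower: 1 of 1 tested ligand, 14 of 49 other interferon-stimulated genes, 2 of 13 sensing adaptors and kinases and 1 of 10 signalling genes rose, and 1 of 5 receptor genes and 1 of 10 signalling genes fell, while none of 8 negative regulators was called. Ifng was at 57.7, 75.0 and 80.4 CPM in CD4 T cells of the p16-DTR libraries and at 44.8, 28.3 and 26.9 in the controls, without overlap (log2 fold change 1.09 ± 0.21, edgeR adjusted p = 0.0316). Ifitm1, which blocks virus entry, was at 19.0, 28.5 and 14.1 CPM against 6.12, 7.44 and 4.37 (log2 fold change 1.77), and Ifit1bl1, an IFIT relative, at 21.3, 26.4 and 17.6 against 7.90, 4.18 and 8.61 (1.62). Ifngr2, the signalling chain for interferon gamma, was at 60.1, 37.8 and 45.8 CPM against 98.6, 116 and 114 and fell by 1.24 on the log2 scale (adjusted p = 0.00953). Irf4, a factor of lymphocyte activation, was at 39.7, 27.8 and 34.7 CPM against 62.2, 78.6 and 50.5 and fell by 0.94; without the interleukin 17 programme cells its log2 fold change was 0.022, while Ifngr2 was then the single pathway call (log2 fold change -1.28, adjusted p = 0.0217). With 1 library left out in turn, Ifngr2 stayed called in all 6 fits, while Ifng, Ifitm1 and Irf4 each lost their call in 4 of 6 and Ifit1bl1 in 3.

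Outside T cells, the calls included the feedback inhibitor Socs1, which blocks JAK kinases. Socs1 was at 9.30, 9.91 and 10.96 CPM in venous cells of the p16-DTR libraries and 19.9, 22.7 and 21.96 in the controls, a wide gap, and fell by 1.08 on the log2 scale (SE 0.13, edgeR adjusted p = 0.0109); it stayed called with each library left out. In general capillary cells Socs1 was at 11.3, 14.2 and 12.2 CPM against 26.6, 20.01 and 28.5 (log2 fold change -0.94, adjusted p = 0.0476). Socs3, a relative that inhibits cytokine receptors, was at 102, 133 and 91.0 CPM in ciliated cells against 228, 209 and 198 (log2 fold change -0.94, adjusted p = 0.0350). In alveolar fibroblasts Ifngr1 was at 623, 558 and 639 CPM against 406, 438 and 472 (log2 fold change 0.50), and Ifngr2 (0.32) and Tmem173, the DNA-sensing adaptor STING (0.40), rose as well. In aerocytes Ifitm3 was at 303, 233 and 298 CPM against 178, 162 and 175 (0.73). None of these groups overlapped. With 1 library left out in turn, the calls of Socs1 in general capillary cells and Socs3 in ciliated cells were each lost in 5 of 6 fits, Ifitm3 in aerocytes in 4, and Ifngr1, Ifngr2 and Tmem173 in alveolar fibroblasts in all 6.

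Whether an effect in a cell type differed from that in the other assigned cells of the same libraries was tested as an interaction in the 4 types with calls. The other cells were summed per library, and their mix of types differed between libraries. General capillary cells, for example, numbered 3597, 3709 and 4160 in p16-DTR libraries 1 to 3 and 2806, 3339 and 3305 in the controls. A difference in response and a difference in that mix cannot be told apart in this test. For the 37 genes, edgeR's quasi-likelihood test called 0 in CD4 T cells, venous cells, general capillary cells and aerocytes, beside 0.535%, 0%, 0% and 0.02% of all genes. At an unadjusted p under 0.05 the members numbered 15 in CD4 T cells (10% of all genes), 6 in venous cells (8.4%), 18 in general capillary cells (13.2%) and 4 in aerocytes (7.44%). DESeq2 called 5 in CD4 T cells (3.26% of all genes), 1 in venous cells (1.93%), 7 in general capillary cells (2.92%) and 0 in aerocytes (0.45%). The effect on Oas2 in venous cells differed from that in the other cells by 0.08 on the log2 scale (adjusted p = 0.909). The calls above are therefore not shown to be particular to their cell types.

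Counted cell by cell, the number of distinct interferon response genes with a UMI was compared as well. Each cell was thinned to 5000 UMIs, and shallower cells were left out. CD4 T cells held 6.60 to 7.56 of the genes on average in the p16-DTR libraries and 5.25 to 5.60 in the controls, CD8 T cells 6.13 to 7.09 against 5.36 to 5.80, and B cells 4.59 to 5.11 against 3.76 to 4.08. Neutrophils held 5.40 to 7.06 against 3.51 to 5.38, with 14.9% of cells left out (281 p16-DTR and 208 control). Alveolar type 2 cells held 1.27 to 1.69 against 1.70 to 1.81, and peribronchial fibroblasts 2.78 to 3.59 against 3.99 to 4.46. In these 6 types the groups did not overlap, 4 being higher and 2 lower, and in the other 11 they did; without thinning the counts were again 4 higher and 2 lower. With thinning to 2500 UMIs they were 4 higher and 3 lower, since arterial cells (3.60 to 4.03 against 4.14 to 4.82) no longer overlapped. Each thinning was a single random draw. At 5000 UMIs the nearest libraries were close in alveolar type 2 cells (p16-DTR 1.692, control 1.698) and in neutrophils (p16-DTR 5.402, control 5.382). In both types the groups also did not overlap without thinning and at 2500 UMIs. With 3 libraries a group, an exact two-sided permutation test cannot go below 0.1, so these are descriptions.

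**Figure D5:**
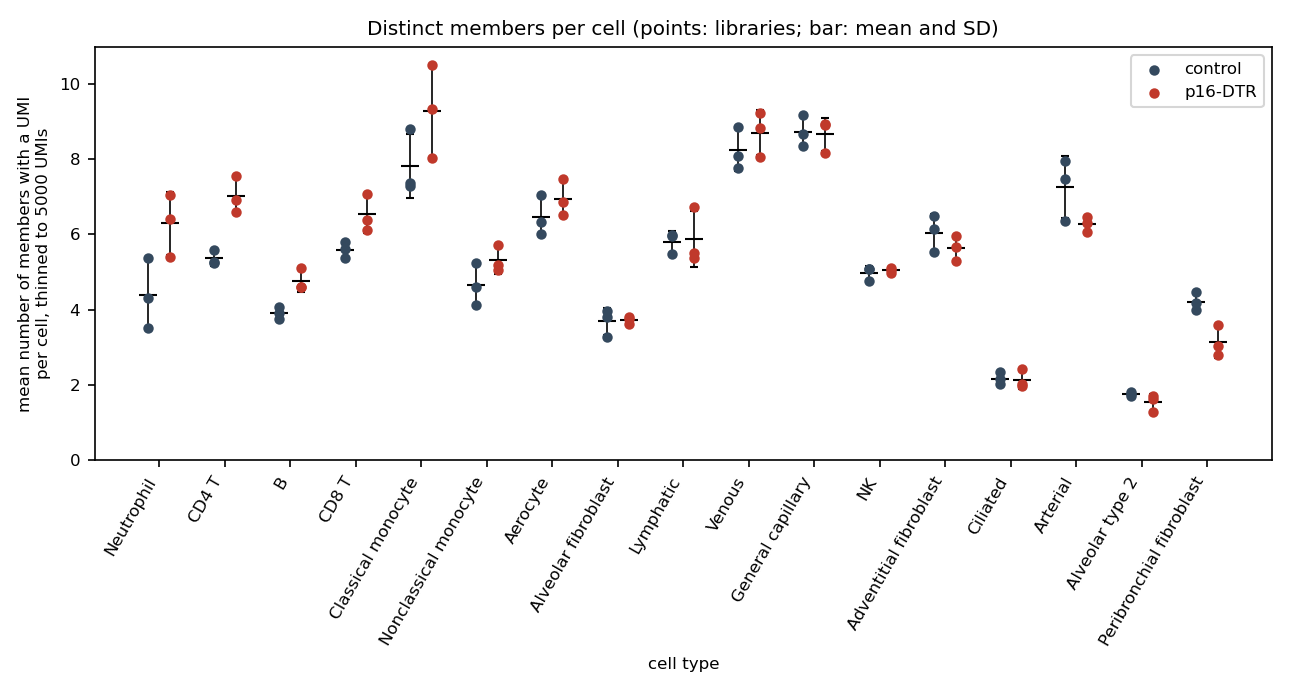
Mean number of distinct interferon response genes with a UMI per cell, each cell thinned to 5000 UMIs, in each of 3 control and 3 p16-DTR libraries (points, with mean and SD) for 17 cell types. The p16-DTR points lie above the control points in neutrophils, CD4 T, B and CD8 T cells, and below them in alveolar type 2 cells and peribronchial fibroblasts.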

How the data were processed

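The values the authors deposited are raw UMI counts for each gene in each barcode, not normalized, made with Cell Ranger 8.0.1 on mm10, per the submitters' processing notes; the annotation and cell-calling settings are not given in the sources used here. Samples were grouped by their labels, 3 libraries against 3, with 1 library per mouse, and no batch is labelled. The cell filter required 300 genes and 500 UMIs per barcode and allowed 15% mitochondrial UMIs. A cell was assigned to a lineage when it had at least 4 of 6 markers and led the next lineage by 2, and to a subtype with 3 of 6 and a lead of 1. No doublet caller was used except before clustering, so mixed profiles may remain among the assigned cells. Cells left unassigned entered the clusters and the all-cell sums, except in the equal-cell draw, and are otherwise given as values only. The members and all gene lists were chosen with earlier results of these data known.

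Counts were summed per library and cell type and tested in R 4.3.3 by the quasi-likelihood test of edgeR 4.0.16 (filterByExpr, TMM, Benjamini-Hochberg within a cell type, threshold 0.05), with the group alone in the design. Standard errors were approximated from the F statistic. Alternatives were DESeq2 1.42.0, RLE or library size scaling, the replicate number as a block, no filter on low counts, stricter cell and marker rules, Leiden clusters (leidenalg 0.10.2), equal cells per library, adjustment over all cell types and each library left out; the fit without interleukin 17 programme cells was added after seeing the data. On simulated data over all cells (21407 genes run), edgeR recovered 53.5% of 99 genes changed 2-fold and 93.8% of 97 changed 4-fold. In CD4 T cells (11672 genes run) it recovered 63.5% of 96 and 92.7% of 96. It also called 16 unchanged genes over all cells and 10 in CD4 T cells. Each gene was simulated on its own from its mean and dispersion, without shifts that many genes share within a library. The recovery in the real data can therefore differ from these rates. Shares of all genes called by DESeq2 are over genes to which it gave an adjusted p. Its member counts stand beside all members tested, so the denominators are unlike. P-values set the difference between groups against the spread between these mice, which the tests estimate with information shared over genes. Of the features, 30934 of 31054 matched GENCODE M21 (GRCm38), used for positions.

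Over all cells Isg15, Ifit3, Oas2, Irf7, Stat2, Irf1, Usp18, Bst2, Gbp2, Iigp1, Igtp, Psmb8, Ifih1 and Zbp1 are named. Within cell types every called member is named, with full values for up to 4 per type. Of pathway genes, Ifng, Ifnb1, the 4 receptor chains and Irf9 are named, with the 3 largest called changes in each direction; some items of the rule are not reported here.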

Additional observations from a re-analysis of the deposited data

Results flagged for a closer look

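In CD4 T cells, 2 pathway genes differed in their p16-DTR effect from the sum of the other assigned cells of the same libraries by the edgeR interaction test, among 0.535% of all genes called in that fit. The mix of cell types in that sum differed between libraries, and its part in these differences was not tested. Ifngr2, the signalling chain of the interferon gamma receptor, had a difference of -1.46 on the log2 scale (adjusted p = 0.0141). Slfn2, a T cell quiescence factor induced by interferon, had a difference of -0.70 (adjusted p = 0.0433), while its own log2 fold change within CD4 T cells was 0.17 (edgeR adjusted p = 0.382) and over all cells 0.79 (0.124).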

How the results depend on the processing

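Over all cells the count of members called was 0 in every fit except DESeq2, with 20, and was 0 to 0 with each library left out; for pathway genes DESeq2 gave 33 in place of 0. Within cell types the 12 member calls became 62 with DESeq2, 71 without the filter on low counts (50 higher and 21 lower, beside 1.47% of all tests called), 20 in Leiden clusters (17 higher and 3 lower, beside 0.945%), 3 with adjustment over all cell types and 4 without interleukin 17 programme cells, and 2 to 8 with a library left out. Of the 12, DESeq2 shared 11, the unfiltered fit 12 and the Leiden clusters 8. Calls as lower also arose with equal cells (7 higher and 2 lower) and the replicate block (12 and 2). Library size scaling and the stricter marker rule each gave 13 and 1. They also arose without p16-DTR library 1 (6 and 2), p16-DTR library 2 (3 and 1) or control library 2 (3 and 3).

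In CD4 T cells the 8 calls became 13 with DESeq2, 14 without the filter, 4 with equal cells, 1 with adjustment over all cell types and 0 without interleukin 17 programme cells (1 to 5 with a library left out). In venous cells the 2 became 4 with DESeq2 (2 higher and 2 lower, beside 4.45% of all genes). They became 5 without the filter and 1 with adjustment over all cell types (1 to 2 with a library left out). In aerocytes the 1 call became 2 with RLE, the stricter marker rule or Leiden clusters. DESeq2 gave 5, all higher, beside 2.6% of all genes. The count was 7 without the filter and 0 with library size scaling, equal cells, adjustment over all cell types or any library left out. In general capillary cells the 1 became 8 with DESeq2 (5 higher and 3 lower, beside 8.57% of all genes). The count was 5 without the filter, 2 with the stricter marker rule and 3 in Leiden clusters. It was 0 with adjustment over all cell types, and 0 to 1 with a library left out. The 27 pathway calls became 66 with DESeq2, 69 without the filter, 16 with equal cells, 7 with adjustment over all cell types and 8 without interleukin 17 programme cells (6 to 18 with a library left out). The member interaction count of 0 became 13 with DESeq2 (0 to 1 with a library left out), and the pathway interaction count of 2 became 23 with DESeq2 and 1 with RLE, library size scaling or no filter (1 to 2 with a library left out).

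Same-numbered libraries met the rule for deviating together (all 3 correlations above 0.1) in no cell type. The labels do not say that the numbers pair mice, and this rule cannot exclude a pairing. With the replicate number as a block, CD4 T calls were 5, aerocyte calls 0, general capillary calls 0, the member interaction count 1 and all member calls 14, of which 6 were among the 12.

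Stat2 over all cells turned to -0.013 with library size scaling and -0.015 with equal cells of each type, and ranged from -0.034 to 0.11 with a library left out, below 0 without p16-DTR library 2 or control library 2. Irf4 in CD4 T cells turned to 0.022 without interleukin 17 programme cells. For named genes, 444 of 590 values under other settings kept their direction and side of the threshold, and 200 of 366 with a library left out, where 162 calls were lost and 2 values reversed. The stricter marker rule left peribronchial fibroblasts and arterial cells under 50 cells in a library. Unless the construction of the setting shows it, the cause was not tested.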

Other observations

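Cell types with under 50 cells in some library were not tested, and their values are given as counts of the 37 members with the higher mean CPM in the p16-DTR libraries. This held for 36 members in type 1 conventional dendritic cells (179 p16-DTR and 120 control cells, 47.7% of all genes), 6 of them without overlap (4.95%). It held for 35 in pericytes (87 and 145 cells, 48.7%), 4 without overlap (4.48%), and for 29 in interstitial macrophages (325 and 136 cells, 51.8%), 3 without overlap (5.03%), beside 1 lower without overlap (3.82%). In type 2 conventional dendritic cells (134 and 113 cells) it held for 30 (44.4%), but for 0 without overlap (3.27%). It held for 14 members in mesothelial cells (84 and 154 cells, 47.1%), where 1 was higher and 5 lower without overlap (3.68% and 4.66% of all genes), and for 12 in smooth muscle cells (62 and 125 cells, 43.4%), where 2 were higher and 2 lower (3.41% and 6.19%). In alveolar macrophages (35 and 37 cells) it held for 12 (48.1%), with 1 higher and 0 lower without overlap (2.8% and 4.27%). It held for 25 members in gamma-delta T cells (52.4% of all genes), 22 in alveolar type 1 cells (47.1%), 22 in plasma cells (32.6%) and 21 in plasmacytoid dendritic cells (46.8%). It held for 19 in type 2 innate lymphoid cells (55.4%), 19 in mast cells or basophils (61.6%), 18 in secretory cells (25.1%) and 17 in platelets (56.5%). Erythroid and migratory dendritic cells had no cell in at least 1 library and are left out. In cells that passed no marker rule (10532 and 10785), 35 members had the higher mean (42.8% of all genes), 17 did so without overlap (8.7%), and 2 were lower without overlap (16.8%).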
